A study of Rattus norvegicus with 18 samples.

Results

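Of the 28268 full-length transcript isoforms (FLTs) in the deposited tables, 601 (2.13%) were chosen by their levels. They were listed at 0 TPM in both libraries of whole rat hippocampus and averaged 5 TPM or more across the 6 polysome profiling libraries of whole rat brain. Judged by hippocampus replicate 2 alone, without replicate 1, there would be 1231. TPM is the share of a library's transcripts that an isoform takes. The rule used these values, so the 0 in hippocampus and the mean over the brain libraries are a description and not a finding. In all, 6652 isoforms were at 0 TPM in both hippocampus libraries, and 6051 of them had a mean under 5 TPM in brain. A further 12501 isoforms met the brain limit and were above 0 in at least 1 hippocampus library. They are used below for comparison as the isoforms seen in both tissues.

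All libraries came from Sprague Dawley rats, per the labels male and 4 weeks old, with no genotype or treatment group. The 12 libraries analysed hold 2 replicates each of 6 groups, which are whole hippocampal slices, the somata layer and the neuropil layer of CA1 cut out of slices by hand, and a whole-brain lysate parted into ribosome-free, monosome and polysome RNA. CA1 is a field of the hippocampus. Its somata layer holds the cell bodies of pyramidal neurons together with other cells, and its neuropil layer holds mainly their dendrites and axons along with glia and blood vessels. The labels do not say that replicates were separate animals, so p-values measure only the spread between these libraries, which may be technical. The values came as 3 tables, 1 for hippocampus, 1 for the brain fractions and 1 for the CA1 layers. Levels set side by side across tables were therefore made separately, and the methods name an mRNA library kit for hippocampus and a total RNA kit for the brain fractions. The labels, in contrast, give polyA RNA as the molecule for all 12 libraries, and the part of this disagreement in the zeros of hippocampus was not tested.

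A gene's isoforms arise by alternative transcription start sites, splicing and polyadenylation, and can share most of their sequence. The FLTs were built from long PacBio reads of normalized hippocampal cDNA, so each of the 601 isoforms stands for at least 1 long read that the study obtained from hippocampus. The short reads were then divided among the isoforms by RSEM, which shares out reads that fit several isoforms by an expectation-maximization algorithm. A value of 0 is therefore an estimate, and isoforms are described as listed at 0, not as absent. In polysome profiling, a sucrose gradient separates RNA without ribosomes from RNA with a single ribosome (monosome) and from RNA with several (polysome).

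The 3 isoforms just inside the limit of 5 TPM averaged 5.0, 5.01 and 5.04 TPM over the fractions, and the 3 just outside had means of 4.97, 4.96 and 4.96 TPM. No isoform stood apart at this limit, and 316 of the 601 averaged 10 TPM or more.

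The 601 isoforms took between 1.33% and 2.14% of the TPM in each of the 6 fraction libraries. Their share was 1.58% and 1.45% in the ribosome-free, 1.39% and 1.33% in the monosome and 2.14% and 2.08% in the polysome libraries. In the CA1 table they took less, with 0.412% and 0.443% in somata and 0.789% and 0.546% in neuropil. The median isoform was at 7.40 and 6.80 TPM in the ribosome-free, 9.43 and 8.59 TPM in the monosome and 10.5 and 10.2 TPM in the polysome libraries. In each of the 4 CA1 libraries the median was 0.

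**Figure D1:**
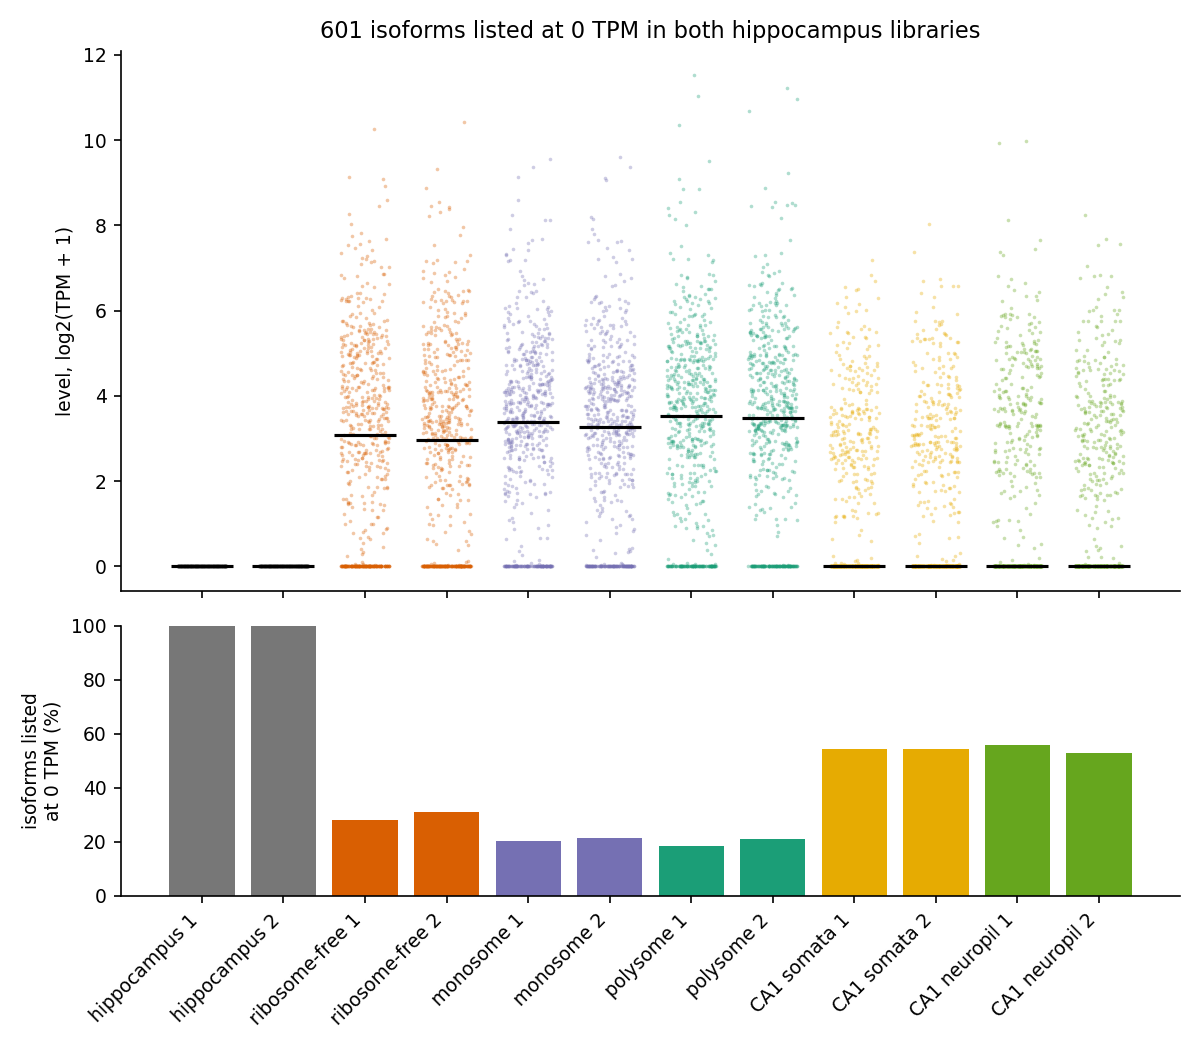
Levels of the 601 isoforms in each of the 12 libraries. Top, level on the log2(TPM + 1) scale, 1 point per isoform, with the median as a bar; bottom, percentage of the 601 isoforms listed at 0 TPM. By the rule all are at 0 in hippocampus; at least 52.9% of the isoforms were at 0 in each CA1 library.

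A level in every fraction library was less common than among the isoforms seen in both tissues. Of the 601 isoforms, 217 (36.1%) were above 0 in all 6 fraction libraries. The same held for 46.5% of all isoforms and 86.7% of those seen in both tissues. The latter also had higher levels, with medians from 14.1 to 24.3 TPM in the fraction libraries, and the part of level was not tested. Of the 601, another 137 were above 0 in 5 libraries, 116 in 4, 56 in 3, 68 in 2 and 7 in 1. Both replicates were at 0 for 119 isoforms in the ribosome-free, 80 in the monosome and 82 in the polysome fraction. The replicates themselves also parted more often. A replicate at 0 beside one of 10 TPM or more was found for 44 isoforms (7.32%) in the ribosome-free, 28 (4.66%) in the monosome and 20 (3.33%) in the polysome fraction. The same shares were 1.51%, 0.656% and 0.320% among the isoforms seen in both tissues.

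The fraction with the highest mean was polysome for 250 isoforms (41.6%), ribosome-free for 194 (32.3%) and monosome for 157 (26.1%). Among the isoforms seen in both tissues these shares were 47.5%, 16.6% and 36.0%. Over the other isoforms at 0 in hippocampus that averaged 1 TPM or more, they were 29.6%, 33.9% and 36.5%, and over all isoforms of that level 40.8%, 20% and 39.2%. The ribosome-free share was thus near that of the other isoforms at 0 in hippocampus. The ribosome-free fraction held over 90% of the sum of the 3 fraction means for 75 of the 601 isoforms (12.5%) against 0.856% of the isoforms seen in both tissues, and the polysome fraction did so for 39 (6.49%) against 0.536%. Among the other isoforms at 0 in hippocampus the shares were 12.4% and 5.76%, so that a level concentrated in a single fraction was not particular to the 601. For monosome there were 4 (0.666%), against 3.6% of those. An isoform can reach a mean of 5 TPM through 1 fraction alone, and the limit was the same for the isoforms seen in both tissues.

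The differences between fractions were tested with limma over all 19667 isoforms averaging 1 TPM or more, on the log2(TPM + 1) scale, and only the rows of the 601 isoforms were then read. All 601 entered the test. Since some reached the limit through the fraction in which they were high, the counts below describe the isoforms and support nothing further. At an adjusted p under 0.05, 202 of the 601 (33.6%) were higher in polysome than in ribosome-free RNA, against 34.1% of all isoforms tested and 46.2% of those seen in both tissues. Lower in polysome were 131 (21.8%), against 11.1% of all isoforms tested and 12.9% of those seen in both tissues. Thus the share of higher calls was near that of all isoforms tested and below that of the isoforms seen in both tissues, and the share of lower calls was above both. No call share is given here for the other isoforms at 0 in hippocampus, whose ribosome-free share was near that of the 601. The excess of lower calls is therefore not shown to be particular to the 601, here or in the comparisons below. Without polysome replicate 1 or 2, the higher calls numbered 125 and 123.

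For monosome against ribosome-free RNA, 141 isoforms (23.5%) were higher in monosome, against 32.1% of all isoforms tested and 41.7% of those seen in both tissues. Another 99 (16.5%) were lower, against 7.30% and 8.30%. For polysome against monosome RNA, 80 isoforms (13.3%) were higher in polysome, with a background of 11.6% of all isoforms tested and 16.4% of those seen in both tissues, and 56 (9.32%) were lower, with a background of 11.6% and 14.8%. Without monosome replicate 1, 91 were higher in monosome in the first of these comparisons. For polysome against monosome, 50, 35 and 39 were higher without monosome replicate 2, polysome replicate 1 and polysome replicate 2, and 30, 20, 29 and 29 were lower without monosome replicate 1, monosome replicate 2, polysome replicate 1 and polysome replicate 2. The comparisons share libraries, so their counts are not independent. In all, 381 isoforms (63.4%) were called in at least 1 comparison, against 57.0% of all isoforms tested and 71.4% of those seen in both tissues, and 220 (36.6%) in none. Higher in ribosome-free than in both other fractions were 84 isoforms (14.0%), against 4.98% and 5.28%. Higher in polysome than in both others were 65 (10.8%), against 9.93% and 14.1%, and higher in monosome 13 (2.16%), against 5.82% and 7.31%.

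TPM within a library sum to a constant, and the median log2 difference of all isoforms tested was 0.63 for polysome and 0.69 for monosome against ribosome-free RNA. The split of the calls moved with this shift. With quantile normalization 149 isoforms (24.8%) were higher in polysome than in ribosome-free RNA, against 20.5% of all isoforms tested and 27.4% of those seen in both tissues, and 150 were lower, a share of 25%, against 17.6% and 20.7%. With median ratios 152 (25.3%) were higher, against 21.2% and 28.0%, and 154 (25.6%) lower, against 17.8% and 21.4%. The lower calls thus stayed above both backgrounds, by less than without these scalings. For monosome against ribosome-free RNA, 94 (15.6%) were higher with quantile normalization, against 16.1% and 22.3%, and 119 (19.8%) lower, against 13.7% and 16.3%. With median ratios 98 (16.3%) were higher, against 15.4% and 19.4%, and 122 (20.3%) lower, against 15.0% and 19.4%. Where neither group was at 0 in both libraries, the median log2 difference between polysome and ribosome-free RNA was 0.43 over 403 of the isoforms and 0.58 over 17102 of all isoforms tested.

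**Figure D2:**
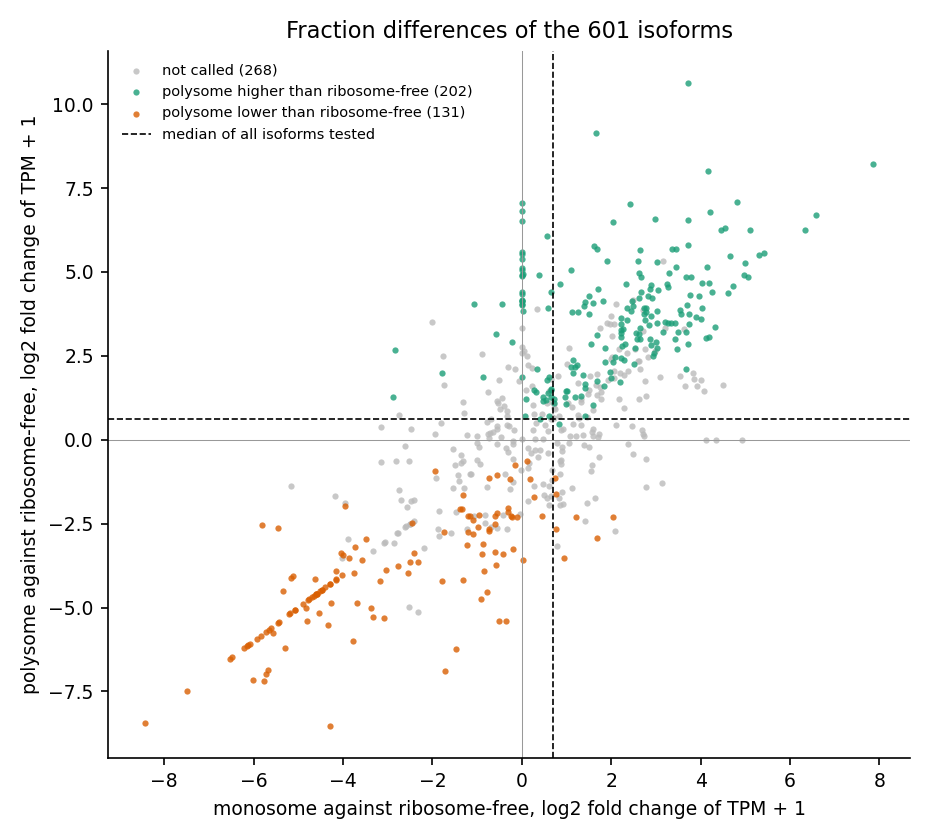
Fraction differences of the 601 isoforms, with monosome against ribosome-free (x axis) and polysome against ribosome-free (y axis) as log2 differences of TPM + 1; points are isoforms coloured by the limma call for polysome against ribosome-free, and dashed lines are the medians of all isoforms tested (0.69 and 0.63). The 202 higher and 131 lower isoforms spread away from the medians on both sides; the straight lines of points are isoforms with fractions at 0, whose position depends on the pseudocount of 1.

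Many calls rested on a fraction in which both replicates were at 0. This held for the ribosome-free fraction of 95 of the 202 isoforms higher in polysome, and for the polysome fraction of 62 of the 131 lower ones. The isoforms higher in polysome had a median read length of 2149.5 nt and those lower in polysome one of 1759 nt. The isoforms of these groups also differed in CA1, a table that took no part in the call. Of those higher in polysome, 56 (27.7%) were above 0 in all 4 CA1 libraries and 38 (18.8%) in none. Of those lower in polysome, 9 (6.87%) were above 0 in all 4 and 62 (47.3%) in none. These shares and lengths are descriptions, since isoforms are not replicates. The same values over all isoforms called higher or lower are not given here, so none is shown to be particular to this set.

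The 5 isoforms with the highest means over the fractions differed in their distribution. None of them was called higher in monosome than in both other fractions. The tables hold no gene names, and the lists in the study's supplement pair none of these 5 with a gene, so they are given by read length and identifier. The highest was a 1028-nt isoform (RNN_LD3.103_ccs_97788), with 481 and 636 TPM in the ribosome-free, 747 and 655 in the monosome and 2936 and 1985 in the polysome libraries. Both polysome libraries were above all 4 others. The log2 difference from the ribosome-free fraction was 2.12 (SE 0.24, limma adjusted p = 0.00175) and that from the monosome fraction 1.79 (SE 0.24, limma adjusted p = 0.0073). Leaving out either monosome replicate or polysome replicate 1 ended the call against monosome, and over its 15 alternatives the adjusted p ran from 0.00357 to 0.0665. In CA1 the same isoform had 66.7 and 52.6 TPM in somata and 973 and 204 TPM in neuropil. The layers did not overlap, but the adjusted p was 0.255 with limma.

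A 652-nt isoform (RSN_LD2.104_sub_150373) had most of its brain level in polysomes. It had 0.99 and 0 TPM in the ribosome-free, 33.9 and 9.03 TPM in the monosome and 2095 and 2400 TPM in the polysome libraries. The 3 fractions did not overlap, and the log2 difference between polysome and monosome was 6.91 (SE 0.65, limma adjusted p = 0.00304), called under all 15 alternatives. Its CA1 replicates did not hold together, with 0.05 and 83.9 TPM in somata and 65.7 and 0 TPM in neuropil.

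A 3598-nt isoform (RSN_LD3.101_sub_133082) had 31.4 and 0 TPM in the ribosome-free, 160 and 63.6 TPM in the monosome and 1316 and 1636 TPM in the polysome libraries. It was higher in polysome than in ribosome-free RNA by 8.01 on the log2 scale (SE 1.63, limma adjusted p = 0.0129), and the call was lost without either polysome replicate or without the filter on low values, with adjusted p from 0.00314 to 0.104 over the alternatives. Its CA1 levels were 0 and 95.1 TPM in somata and 1000 and 62.6 TPM in neuropil, so a single neuropil library carried most of its CA1 mean.

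The other 2 leaned away from polysomes. A 405-nt isoform (RNN_LD1.103_sub_134656) had 1227 and 1371 TPM in the ribosome-free, 280 and 532 TPM in the monosome and 181 and 202 TPM in the polysome libraries, and 0 in all 4 CA1 libraries. The values stepped down from fraction to fraction without overlap, and the isoform was lower in polysome than in ribosome-free RNA by a log2 difference of -2.75 (SE 0.31, limma adjusted p = 0.00174). A 752-nt isoform (RNN_LD1.104_ccs_76146) had 562 and 466 TPM in the ribosome-free, 564 and 555 TPM in the monosome and 304 and 356 TPM in the polysome libraries. Both polysome values lay below all others, with log2 differences of -0.64 from ribosome-free (SE 0.13, limma adjusted p = 0.0137) and -0.76 from monosome RNA (SE 0.13, limma adjusted p = 0.0153). The first call was lost without ribosome-free replicate 1 or polysome replicate 1 and the second without any 1 of the monosome or polysome libraries, both also with a constant prior variance, and the adjusted p by limma ran to 0.0846 and 0.0992 over the alternatives. In CA1 it was at 5.37 and 3.69 TPM in somata and at 0 in both neuropil libraries.

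Among the called isoforms with the most extreme differences and no overlap between groups, most had a fraction at 0, so no fold is given for them. A 2185-nt isoform (RSN_LD3.109_ccs_67406) had 347 and 342 TPM in the libraries of the ribosome-free fraction and 0 in all other libraries of the series analysed here (limma adjusted p = 0.000135 for polysome and 0.000205 for monosome against ribosome-free RNA). A 767-nt isoform (RNN_LD3.104_ccs_126746), with 224 and 143 TPM in the ribosome-free libraries, was likewise at 0 in the other 10. A 754-nt isoform (RNN_LD1.110_ccs_30281) had 384 and 349 TPM in the ribosome-free and 23.8 and 13.1 TPM in the monosome libraries and was at 0 in both polysome and all 4 CA1 libraries. All 3 had their highest levels in ribosome-free RNA of brain and were listed at 0 in hippocampus and CA1.

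A further pair was high in both fractions with ribosomes and at 0 in the fraction without. A 2060-nt isoform (RNN_LD4.106_ccs_83969) was at 0 in both ribosome-free libraries, at 277 and 194 TPM in monosome RNA, and at 257 and 344 TPM in polysome RNA, and at 0 throughout CA1. A 2889-nt isoform (RSN_LD3.109_ccs_41089) was at 0 in both ribosome-free libraries, at 87.1 and 102 TPM in the monosome libraries and at 112 and 94.4 TPM in polysome. Unlike the former it was present in every CA1 library, with 62.2 and 78.8 TPM in somata and 94.4 and 42.9 TPM in neuropil. For both, monosome and polysome overlapped, and each was called against ribosome-free RNA in both comparisons (limma adjusted p between 9.74e-05 and 0.000205).

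Isoforms high in polysome alone, or at 0 in polysome and above 0 in monosome, completed the extremes. A 1256-nt isoform (RSN_LD4.107_ccs_108142) had 0 TPM in both ribosome-free libraries, 0 and 8.88 TPM in the monosome libraries and 540 and 595 TPM in polysome, and in CA1 it was at 0 in both somata libraries and at 59.6 and 107 TPM in neuropil. A 1857-nt isoform (RSN_LD4.103_ccs_140049) was at 0 in the ribosome-free and monosome libraries and at 146 and 119 TPM in polysome, with 1.91 TPM in somata replicate 2 as its only CA1 value above 0. Both were higher in polysome than in monosome RNA (limma adjusted p = 0.00849 and 0.0015), the former not without polysome replicate 1 or 2 (limma adjusted p = 0.0895 and 0.0867).

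In the opposite direction, a 1064-nt isoform (RSN_LD2.106_ccs_8112) had 154 and 88.2 TPM in the ribosome-free and 43.6 and 27.6 TPM in the monosome libraries and was at 0 in polysome. It was also lower in monosome than in ribosome-free RNA (limma adjusted p = 0.0174), a call that held under 8 of 15 alternatives. A 3195-nt isoform (RSN_LD4.109_ccs_77789) had 35.6 and 47.7 TPM in the ribosome-free and 27.9 and 37.1 TPM in the monosome libraries and was also at 0 in polysome. Both were at 0 in all 4 CA1 libraries and were lower in polysome than in monosome RNA (limma adjusted p = 0.00179 and 0.0015).

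Gene names could be given to 14 of the 601 isoforms, because the study's supplementary lists pair 551 isoform identifiers with genes, of which 543 matched the tables. Those lists were drawn up for open reading frames with a changed signal peptide, the N-terminal stretch that directs a protein into the secretory pathway, or in untranslated regions. The named genes are therefore weighted towards such proteins and do not stand for all 601. The study sought translating reading frames in isoforms that it had predicted to be translationally active, mainly from these same fraction libraries. The fraction calls of the named isoforms are thus a description and support nothing further. Of the 15 symbols involved, since 1 isoform spans a pair of genes, 14 matched a RefSeq symbol and RGD1305713 matched a synonym, and all were protein coding. In the 3 fraction comparisons, 9 of the 14 isoforms were called at least once, 8 of them higher and 1 lower in polysome than in ribosome-free RNA. Over all isoforms tested these shares were 34.1% and 11.1%, as given above. Under both quantile normalization and median ratios, 3 of the 8 (Jmjd8, Lypd1 and Ncstn) were called higher, and the other 5 were called under neither.

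Among proteins of membranes and the cell surface, the Lypd1 isoform was high in polysomes and somata. Lypd1 is a lipid-anchored protein of the Ly6 family that binds nicotinic acetylcholine receptors. The 1603-nt isoform was at 0 in both ribosome-free libraries, at 0 and 3.55 TPM in the monosome libraries and at 28.8 and 35.7 TPM in polysome. Polysome lay above both other fractions without overlap, and it was called against ribosome-free (limma adjusted p = 0.00468) and against monosome RNA (limma adjusted p = 0.0208). The call against ribosome-free was lost without polysome replicate 2 (limma adjusted p = 0.0528). That against monosome was lost under 7 of 15 alternatives, among them a pseudocount of 0.1 and each ribosome-free or polysome library left out, with adjusted p from 0.00403 to 0.139. In CA1 it had 23.4 and 19.2 TPM in somata and 0 in both neuropil libraries, with an adjusted p of 0.179 with limma. The gene's other paired isoform, of 2143 nt, had 88.6 and 71.3 TPM in hippocampus and was above 0 in all 12 libraries.

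Ncstn encodes nicastrin, a subunit of the gamma-secretase complex. Its 2683-nt isoform was at 0 in both ribosome-free libraries, at 8.09 and 17.1 TPM in the monosome libraries and at 11.3 and 5.96 TPM in polysome. Monosome and polysome overlapped, and both were called against ribosome-free RNA under all 15 alternatives (limma adjusted p = 0.00473 and 0.00519). It was at 0 in all 4 CA1 libraries. Of the other 4 paired Ncstn isoforms, the highest in hippocampus, of 3100 nt, had 11.2 and 26.0 TPM there.

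Tspan31 encodes a tetraspanin. Its 1510-nt isoform had 12.5 and 4.08 TPM in the ribosome-free, 20.7 and 14.5 TPM in the monosome and 35.2 and 29.3 TPM in the polysome libraries. Its fractions did not overlap, and polysome exceeded ribosome-free RNA by a log2 difference of 2.0 (SE 0.50, limma adjusted p = 0.0254). The call was lost under 8 of 15 alternatives, among them quantile normalization (difference 1.33, limma adjusted p = 0.105) and each monosome or polysome library left out, with adjusted p from 0.0109 to 0.155. All 4 CA1 libraries were at 0, while the row directly before it, not paired with a gene, had 856 and 753 TPM in hippocampus.

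Mitochondrial proteins gave the single gene-named isoform that was lower in polysome. Hars2 encodes the mitochondrial histidyl-tRNA synthetase. Its 3086-nt isoform had 34.1 and 45.6 TPM in the ribosome-free libraries, 0 in both monosome libraries and 0 and 2.11 TPM in polysome. It was lower in polysome than in ribosome-free RNA by a log2 difference of -4.52 (SE 0.61, limma adjusted p = 0.00334) and was also lower in monosome RNA (limma adjusted p = 0.00298), under all 15 alternatives in both cases. In CA1 a single library, somata replicate 1, listed it above 0, at 4.24 TPM.

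Mrps27 encodes a subunit of the mitochondrial ribosome. Its 1908-nt isoform had 5.95 and 12.2 TPM in the ribosome-free, 0 and 9.99 TPM in the monosome and 0 and 11.4 TPM in the polysome libraries. In both fractions with ribosomes a single replicate was above 0, the fractions overlapped, and no comparison was called (limma adjusted p between 0.49 and 0.994). In CA1 it was at 0 and 1.71 TPM in somata and at 0 and 6.78 TPM in neuropil. The directly adjacent Mrps27 isoform, of 2088 nt, had 17.8 and 19.2 TPM in hippocampus.

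One isoform of 2420 nt is paired with Pgam5, a mitochondrial phosphatase, and with Pxmp2, a channel of the peroxisomal membrane. It had 1.73 and 2.75 TPM in the ribosome-free, 7.89 and 3.53 TPM in the monosome and 6.92 and 8.57 TPM in the polysome libraries. Both fractions with ribosomes were above the ribosome-free one, and polysome was called against it (log2 difference 1.44, SE 0.44, limma adjusted p = 0.048), a call lost under 9 of 15 alternatives, among them both scalings and each ribosome-free or polysome library left out (adjusted p from 0.0396 to 0.207). The CA1 values were 9.96 and 1.31 TPM in somata and 0 in both neuropil libraries.

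Proteins of the endoplasmic reticulum, of the lysosome or of enzyme delivery to the lysosome made up a further group. Dnajb11 is a co-chaperone of the endoplasmic reticulum. Its 1727-nt isoform had 8.29 and 7.23 TPM in the ribosome-free, 39.2 and 0 TPM in the monosome and 5.15 and 12.8 TPM in the polysome libraries, with 0 in CA1. The monosome replicates lay on either side of all other values, and no comparison was called (limma adjusted p between 0.858 and 0.979). A Dnajb11 isoform of 1780 nt had 97.3 and 113 TPM in hippocampus.

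Jmjd8 is a protein of the endoplasmic reticulum with a jumonji C domain. Its 2167-nt isoform had 0.18 and 0 TPM in the ribosome-free, 7.42 and 2.07 TPM in the monosome and 10.6 and 11.3 TPM in the polysome libraries. It ascended without overlap, by a log2 difference of 3.46 between polysome and ribosome-free RNA (SE 0.56, limma adjusted p = 0.00603) and of 2.23 between monosome and ribosome-free RNA (SE 0.56, limma adjusted p = 0.0304). The first call was lost without polysome replicate 1 or 2 (limma adjusted p = 0.0528 and 0.0553), and the second under 10 of 15 alternatives, both scalings included (adjusted p from 0.0186 to 0.257). Its CA1 levels were 0 and 7.29 TPM in somata and 0.80 and 0 TPM in neuropil.

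Gnptg is a subunit of the phosphotransferase that marks enzymes for the lysosome. Its 2323-nt isoform had 11.1 and 19.0 TPM in the ribosome-free, 12.9 and 20.4 TPM in the monosome and 6.50 and 11.5 TPM in the polysome libraries, and 4.83 and 4.20 TPM in somata and 8.81 and 13.2 TPM in neuropil. It was above 0 in every library except those of hippocampus, with overlapping fractions and no call (limma adjusted p between 0.223 and 0.80). A Gnptg isoform of 1315 nt had 6.46 and 0 TPM in hippocampus and a mean of 70.9 TPM over the fractions.

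Pla2g15 encodes the lysosomal phospholipase A2. Its 2878-nt isoform had 0 and 3.13 TPM in the ribosome-free, 2.33 and 9.59 TPM in the monosome and 15.6 and 11.9 TPM in the polysome libraries. Polysome lay above both other fractions, and the call against ribosome-free RNA (log2 difference 2.85, SE 0.88, limma adjusted p = 0.0488) was lost under 11 of 15 alternatives, among them both scalings and every fraction library left out in turn except ribosome-free replicate 2, with adjusted p from 0.0289 to 0.222. Its CA1 values were 7.0 and 4.06 TPM in somata and 3.85 and 0 TPM in neuropil.

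The gene-named isoforms with the highest CA1 levels belonged to Ncdn, Tf and Vtn. Ncdn encodes neurochondrin, a cytoplasmic protein of neurons. Its 2438-nt isoform had 42.7 and 36.0 TPM in the ribosome-free, 64.8 and 76.4 TPM in the monosome and 53.6 and 56.7 TPM in the polysome libraries. In CA1 it was higher than in any fraction, with 144 and 164 TPM in somata and 80.7 and 184 TPM in neuropil, levels from a table made separately. It was thus at 36.0 TPM or more in 10 libraries and at 0 in both of hippocampus. The log2 difference from ribosome-free RNA was 0.83 for monosome (SE 0.15, limma adjusted p = 0.0108) and 0.48 for polysome (SE 0.15, limma adjusted p = 0.0473). Both calls followed the scaling. The polysome difference turned to -0.25 with quantile normalization (limma adjusted p = 0.268) and to -0.17 with median ratios (limma adjusted p = 0.429), the range over its alternatives being 0.0356 to 0.429. It was also lost with any 1 fraction library left out except ribosome-free replicate 1. The monosome difference was 0.29 with quantile normalization (limma adjusted p = 0.23), its call was also lost with median ratios and without monosome replicate 2 (limma adjusted p = 0.568 and 0.0582), and over its alternatives the adjusted p ran from 0.00778 to 0.568. A Ncdn isoform of 3279 nt had 3.68 and 11.9 TPM in hippocampus.

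Tf encodes transferrin, the iron carrier of blood plasma, which oligodendrocytes and the choroid plexus make in brain. Its 1736-nt isoform had 26.4 and 60.6 TPM in the ribosome-free, 84.1 and 115 TPM in the monosome and 70.9 and 56.8 TPM in the polysome libraries. In CA1 it had 78.2 and 94.7 TPM in somata and 106 and 130 TPM in neuropil. Both neuropil values exceeded both somata values, but no comparison of this isoform was called (limma adjusted p between 0.0626 and 0.383). The row directly after it, of 2753 nt and not paired with a gene, had 121 and 182 TPM in hippocampus.

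Vtn encodes vitronectin, a protein of plasma and extracellular matrix. Its 1212-nt isoform had 4.76 and 4.14 TPM in the ribosome-free, 9.24 and 6.10 TPM in the monosome and 13.6 and 15.3 TPM in the polysome libraries. The fractions did not overlap, and polysome exceeded ribosome-free RNA by a log2 difference of 1.51 (SE 0.28, limma adjusted p = 0.00993). With quantile normalization and median ratios the adjusted p by limma was 0.0615 and 0.0545, without polysome replicate 1 and 2 it was 0.0619 and 0.0765, and over all alternatives it ran from 0.00785 to 0.0765. It had 7.41 and 8.56 TPM in somata and 24.6 and 31.7 TPM in neuropil, which did not overlap (log2 difference 1.69, SE 0.32, limma adjusted p = 0.195).

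RGD1305713 is listed in RefSeq as C1h15orf40, a protein-coding gene. Its 1778-nt isoform had 3.14 and 16.0 TPM in the ribosome-free, 39.2 and 24.6 TPM in the monosome and 24.96 and 30.6 TPM in the polysome libraries. Both fractions with ribosomes lay above the ribosome-free one, without a call (limma adjusted p = 0.0793 and 0.0918). In CA1 it had 5.51 and 14.3 TPM in somata and 0 in both neuropil libraries (limma adjusted p = 0.225). Of the other isoforms paired with the gene, that of 2241 nt was likewise at 0 in hippocampus and averaged 3.62 TPM over the fractions, whereas that of 2025 nt had 33.6 and 46.7 TPM in hippocampus and a mean of 1.36 TPM over the fractions.

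Support in the dissected CA1 layers was below that over all isoforms. It lay between that of the isoforms seen in both tissues and that of the other isoforms at 0 in hippocampus. Of the 601 isoforms, 107 (17.8%) were above 0 TPM in all 4 CA1 libraries, 113 in 3, 113 in 2 and 103 in 1, and 165 (27.5%) were at 0 in all 4. Over all isoforms, 48.9% were above 0 in all 4 and 18.1% in none. Of the isoforms seen in both tissues, 85.9% were above 0 in all 4 and 0.760% in none. Of the 6051 isoforms at 0 in hippocampus with a mean under 5 TPM in brain, 1.70% were above 0 in all 4 and 61.5% in none. Thus isoforms listed at 0 in whole hippocampus were listed above 0 in every library of a dissected hippocampal field in 107 cases, and 94 of these were at 1 TPM or more in each.

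**Figure D3:**
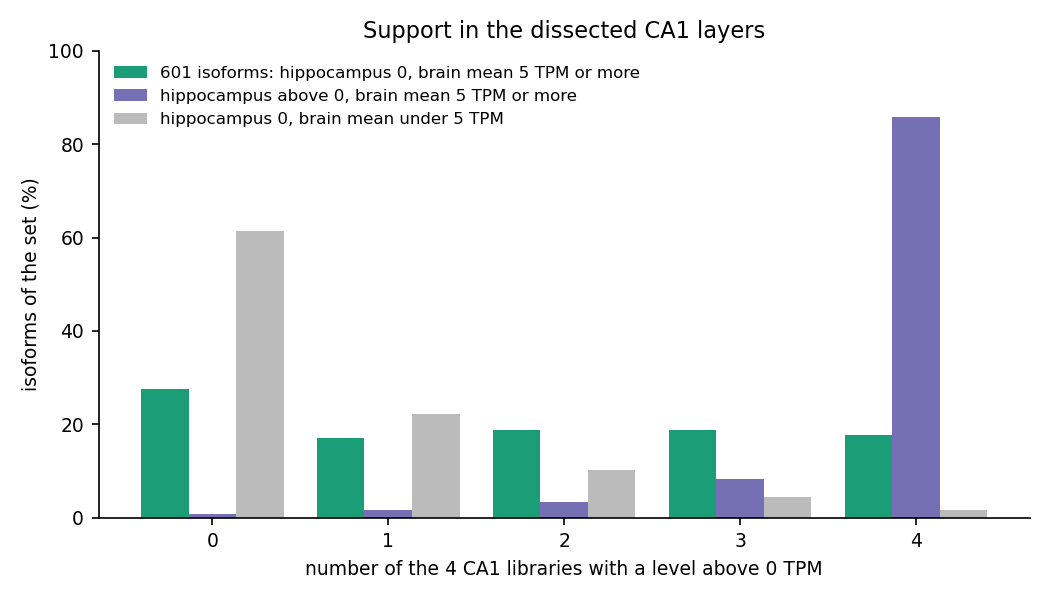
Number of the 4 CA1 libraries (2 somata, 2 neuropil) with a level above 0 TPM (x axis) against the percentage of each set of isoforms (y axis). The 601 isoforms spread over all 5 classes (27.5% at none, 17.8% at all 4), whereas 85.9% of the isoforms seen in both tissues were above 0 in all 4 and 61.5% of the isoforms at 0 in hippocampus with under 5 TPM in brain in none.

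By level, 229 isoforms (38.1%) had a CA1 mean of at least 5 TPM, 136 (22.6%) of at least 10, 16 (2.66%) of at least 50 and 7 (1.16%) of at least 100. These shares were below those of all isoforms, which were 49.5%, 37.8%, 13.7% and 6.96% in the same order. Among the isoforms seen in both tissues they were 90.9%, 77.4%, 30.5% and 15.5%. Of the 6051 isoforms at 0 in hippocampus and below the brain limit, 57 (0.942%) had a CA1 mean of at least 10 TPM. Within the set, the 3 highest in CA1 were the 1028-nt and 3598-nt isoforms described above and a 4241-nt isoform (RSN_LD4.111_ccs_117392). The last had 50.8 and 102 TPM in the ribosome-free, 241 and 293 TPM in the monosome and 370 and 364 TPM in the polysome libraries. In CA1 it had 77.1 and 262 TPM in somata and 0.11 and 302 TPM in neuropil, so that both extremes lay within neuropil. Its fractions did not overlap, and polysome exceeded ribosome-free RNA by a log2 difference of 2.33 (SE 0.33, limma adjusted p = 0.00392, from 0.00274 to 0.0501 over the alternatives, the latter without polysome replicate 1).

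The CA1 replicates parted more than those of the fractions. A replicate at 0 beside one of 10 TPM or more was found for 47 isoforms (7.82%) in somata and 61 (10.1%) in neuropil, against 2.26% and 3.80% of the isoforms seen in both tissues. For neuropil against somata, 385 of the 601 isoforms passed the mean of 1 TPM and were tested. None was called by limma (smallest adjusted p 0.179), as was none of all 20393 isoforms tested, a background of 0%. The study, by its own comparison among neuronal genes with several isoforms, did report isoforms enriched in each layer. With 2 libraries per layer, the lack of calls here does not show that the layers were alike. At an unadjusted p under 0.05, 40 isoforms were higher in neuropil, with 7.57% of all isoforms tested, and 24 were higher in somata, with 7.26% of all isoforms tested. Without overlap, 79 of the 601 isoforms (13.1%) were higher in both neuropil libraries than in both somata libraries, and 55 (9.15%) the reverse. Over all 28268 isoforms these shares were 16.8% and 16.5%. Above 0 in both libraries of one layer and at 0 in both of the other were 29 isoforms of neuropil (4.83%) and 23 of somata (3.83%), against 1.62% and 2.0% of all isoforms, among them the 1256-nt isoform and Lypd1 described above. A level above 0 in any 2 of the 4 CA1 libraries was itself more frequent, at 18.8% of the 601 against 10.1% of all isoforms. The layer shares of the other isoforms at 0 in hippocampus are not given here, so this pattern is not shown to be particular to the 601.

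The isoforms were shorter than the collection as a whole. Their read length, taken from the identifier, ran from 400 to 22605 nt, with a median of 1853 nt and quartiles of 1225 and 2552 nt. The median was 2235 nt over all isoforms, 2167 nt over those seen in both tissues and 2195 nt over those at 0 in hippocampus with under 5 TPM in brain. Up to 1000 nt were 79 isoforms (13.1%), against 7.66% of all isoforms, 9.99% of those seen in both tissues and 6.4% of the others at 0 in hippocampus. Above 4000 nt were 16 (2.66%), against 4.82%, 6.66% and 2.61%, so that this share was near that of the others at 0 in hippocampus. Within the set the length differed by read type, with medians of 1643 nt over circular consensus reads and 2388 nt over subreads. The type itself was shared as in the collection, since 71.7% were circular consensus reads against 72.4% of all isoforms.

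The 3 longest and 3 shortest isoforms had little in common. The longest read, a subread whose aligned length is not given in the sources used here, had 22605 nt. Its isoform had 4.64 and 2.74 TPM in the ribosome-free, 23.2 and 35.2 in the monosome and 4.10 and 5.19 in the polysome libraries. It peaked in monosome without overlap, with log2 differences of 2.69 for monosome against ribosome-free (SE 0.35, limma adjusted p = 0.00425) and -2.40 for polysome against monosome RNA (SE 0.35, limma adjusted p = 0.00951). The latter call was lost without monosome replicate 2 or either polysome replicate (limma adjusted p between 0.0672 and 0.0845). The 8346-nt isoform was lower in polysome (1.10 and 2.79 TPM) than in ribosome-free RNA (12.5 and 18.1 TPM; limma adjusted p = 0.0163), a call lost with any 1 of these 4 libraries left out (limma adjusted p between 0.058 and 0.11).

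The 6519-nt isoform was at 0 in both ribosome-free libraries, at 55.8 and 26.8 TPM in the monosome libraries and at 42.7 and 45.5 TPM in polysome. Of the shortest, the 400-nt isoform had 78.4 TPM in ribosome-free replicate 1 and 30.1 TPM in polysome replicate 2 and was at 0 in the other 4 fraction libraries. The 450-nt isoform had 0 and 23.5 TPM in the ribosome-free, 6.10 and 0 TPM in the monosome and 41.0 and 19.0 TPM in the polysome libraries. Neither was called, while the 405-nt isoform was among the 5 highest.

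Rows next to the 601 isoforms were examined because the order of the tables followed the genes. Among the 543 isoforms paired with a gene, 539 of 542 neighbours were of one gene or in alphabetical order of their symbols, and 82 of 90 directly adjacent pairs (91.1%) shared the gene. Within a gene the identifiers ascended. A run of rows with ascending identifiers was therefore taken as a group of neighbours, of which the tables hold 6012, and all 101 genes with several paired isoforms lay within 1 run. A run can hold more than 1 gene, and the rule for runs was set after the tables had been seen. No gene name was inferred from it.

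An adjacent row reached a mean of at least 5 TPM in hippocampus for 474 of the 601 isoforms (78.9%), against 73.6% of all isoforms and 80.8% of those seen in both tissues, so this share was near the background. A level of 100 TPM or more in an adjacent row was found for 132 (22.0%), against 12.8% and 17.4%. The median of the higher adjacent row was 26.4 TPM in hippocampus, against 16.0 TPM over all isoforms, 23.4 TPM over those seen in both tissues and 11.3 TPM over those at 0 in hippocampus with under 5 TPM in brain. For 57 isoforms (9.48%) both adjacent rows were at 0 in hippocampus too, against 6.58% of all isoforms, 4.75% of those seen in both tissues and 9.19% of the others at 0 in hippocampus. Of the 474, the adjacent row was below the isoform itself over the fractions in 158 (33.3%), and in 30 it was under 1 TPM there. The adjacent row could lie outside the isoform's run. The same shares over other isoforms are not given here, so neither count is shown to be particular to the 601.

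**Figure D4:**
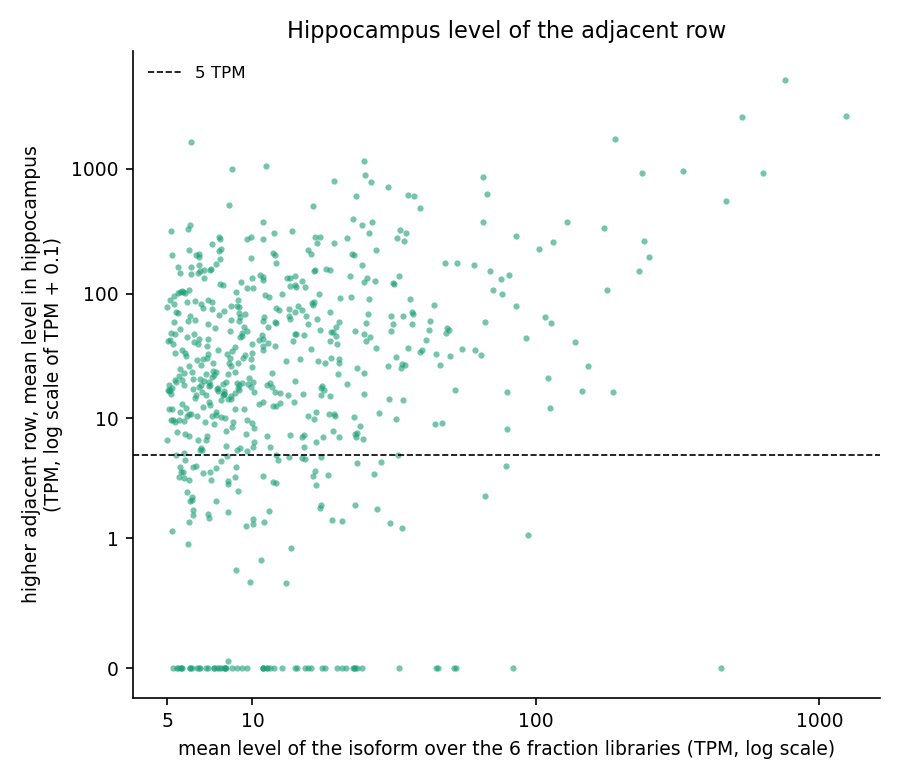
Mean level over the 6 fraction libraries (x axis, TPM, log scale) against the hippocampus mean of the higher of both adjacent rows (y axis, TPM, log scale of TPM + 0.1) for the 601 isoforms. Of the points, 474 lie at or above the dashed line of 5 TPM and 57 at 0.

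The 3 isoforms with the highest adjacent rows were 3 of the 5 most abundant. The 652-nt isoform stood directly before a row of 1793 nt with 5441 and 4852 TPM in hippocampus and a mean of 2832 TPM over the fractions. The 1028-nt isoform stood before a row of 558 nt with 2778 and 2555 TPM in hippocampus and a mean of 343 TPM over the fractions, below its own mean of 1240 TPM. That row was uneven in brain, at 0 in ribosome-free replicate 2 and both monosome libraries and at 401 and 1444 TPM in polysome. The 3598-nt isoform stood after a row of 2158 nt with 2672 and 2508 TPM in hippocampus. In each case the adjacent row lay in the same run.

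All 601 isoforms shared their run with other rows. Their runs had a median of 8 rows, against 6 over all isoforms, and for 600 of 601 (99.8%) the run as a whole summed to at least 5 TPM in hippocampus, as it did for 98.7% of all isoforms and 99.8% of those seen in both tissues. The median sum was 164 TPM, against 81.9 TPM over all isoforms and 110 TPM over those seen in both tissues. The isoform took a median of 9.78% of its run's level over the fractions (quartiles 5.15% and 19.6%), over 50% in 18 cases, and was the highest row of its run in 53 (8.82%). The 601 isoforms lay in 516 runs, 73 of which held 2 or 3 of them.

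The share listed at 0 grew with the size of the run. None of the 846 isoforms alone in a run was at 0 in both hippocampus libraries, against 24.3% of the 27422 isoforms in longer runs. In runs of 2 to 3 rows the share was 9.77%, in 4 to 6 rows 18.3%, in 7 to 10 rows 26.8% and in over 10 rows 40.0%. The 601 isoforms made up 0%, 1.21%, 1.92%, 2.47% and 2.99% of the isoforms in these classes. The isoforms alone in a run also had higher levels, with a median hippocampus mean of 34.1 TPM against 5.02 TPM in longer runs. The part of level, run size and the division of reads among isoforms in these zeros was not tested.

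**Figure D5:**
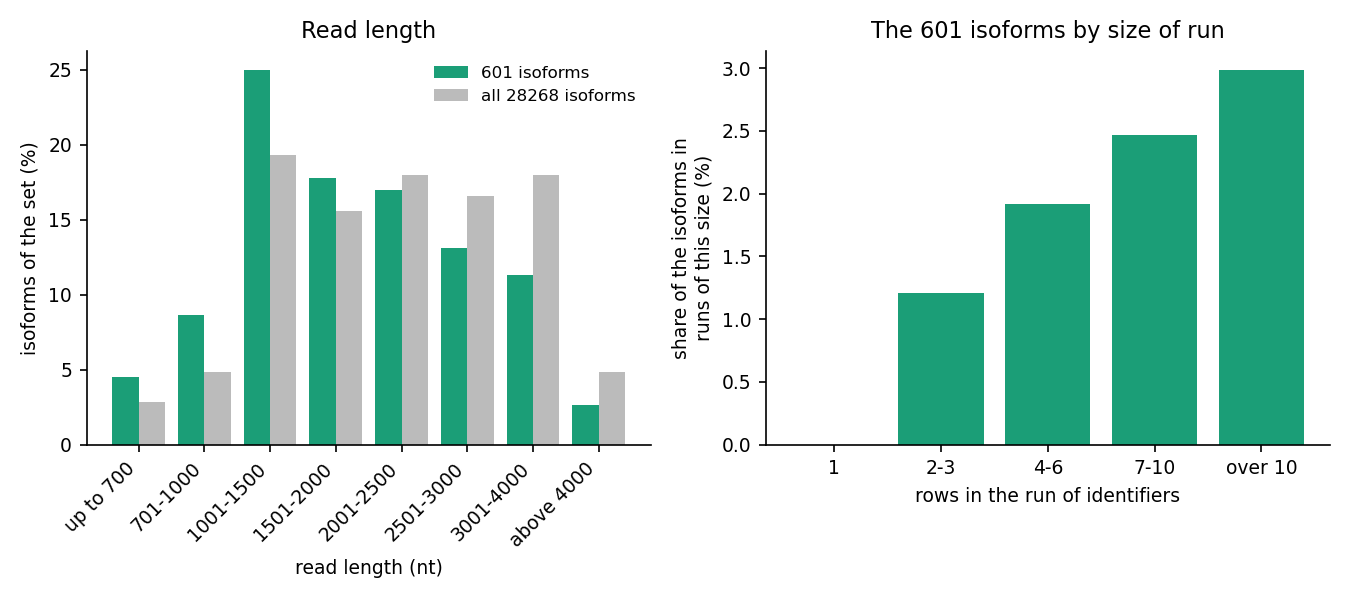
Left, read length in nt (x axis) of the 601 isoforms and of all 28268 isoforms, as a percentage of each set; right, the 601 isoforms as a percentage of all isoforms in runs of the given number of rows. The 601 exceed the collection in every class up to 2000 nt, and their share rises from 0% in runs of 1 row to 2.99% in runs of over 10 rows.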

How the data were processed

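The authors removed adapters with flexbar, built a reference from the FLTs and estimated isoform levels with RSEM and Bowtie 2; the RSEM version is not given in the sources used here, and the submitters' processing notes also name rn6 and TopHat2. The deposited TPM values have 2 decimals and keep no read counts, so depth is unknown and no counting intervals were computed. The methods give single-end reads for hippocampus, whereas the stated RSEM arguments are for paired-end reads. The 6 ribosome footprinting samples were not analysed here.

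Levels were compared within a table with limma 3.58.1 in R 4.3.3 (lmFit, eBayes with trend) on log2(TPM + 1). Tests were two-sided, and p-values were adjusted by Benjamini-Hochberg over every isoform averaging 1 TPM or more, with calls at 0.05. Differences are on this scale and understate those of low isoforms. The 2 libraries per group limit the precision. The fit was tested on simulated data. Python 3.11.15, pandas 2.3.3 and matplotlib 3.10.9 were used for counts and plots.

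Isoforms and alternatives were chosen with earlier results of these data known. Named were the isoforms paired with a gene, the 5 highest over the fractions, per fraction comparison the 2 highest and 2 lowest called differences (averaging 10 TPM or more, no overlap), the 3 highest in CA1, the 3 longest, 3 shortest and 3 with the highest adjacent row, and 3 on each side of the limit. The 134 alternatives changed limits, pseudocount, filter, scaling, prior, block and libraries, and 2 more were added after the data had been seen.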

Additional observations from a re-analysis of the deposited data

How the results depend on the processing

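The number of isoforms meeting the rule was 1850 with a mean of at least 1 TPM, 316 with at least 10 TPM and 217 with a level above 0 in all 6 fraction libraries, and leaving out 1 library in turn gave from 583 to 1231 isoforms. The top of that range was reached without hippocampus replicate 1. Among the fraction comparisons, no filter on low values lowered the counts for polysome against monosome RNA to 49 higher and 31 lower. Leaving out 1 library in turn, with the spread pooled over groups so that the lone library is assumed to vary like the others, gave 123 to 183 isoforms higher and 105 to 119 lower in polysome than in ribosome-free RNA, 91 to 138 higher and 84 to 91 lower in monosome than in ribosome-free, and 35 to 71 higher and 20 to 52 lower in polysome than in monosome, with 0 between the CA1 layers in each case. The cause of these drops was not tested. With a limit of 5 TPM, 55 isoforms were above it in all 4 CA1 libraries, and leaving out 1 CA1 library gave 128 to 147 above 0 in all of the other 3 and 186 to 195 above 0 in none. An adjacent row of at least 5 TPM was found for 457 to 478 isoforms with 1 hippocampus library left out, and the 2 alternatives added after the data had been seen, an adjacent row in the same run and any row in the same run, gave 437 and 600. The median read length was 1643 nt over circular consensus reads, 2388 nt over subreads and 1654 nt with a mean of at least 10 TPM.

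Deviations of same-numbered libraries from their group means correlated at 0.003, 0.002 and -0.01 between fractions and 0.033 between CA1 layers. Such correlations cannot show whether same-numbered libraries came from the same lysate or slices, and the main fits left them unpaired. With the replicate number as a block, 197 isoforms were higher and 132 lower in polysome than in ribosome-free RNA, 141 and 98 in monosome than in ribosome-free, 67 and 47 in polysome than in monosome, and 0 were called between the CA1 layers. Of single named isoforms, 53 called differences were recomputed under 15 alternatives each. In 678 of the 795 cases the call held, in 115 it was lost with the direction kept, and in 2 the direction turned, which were the Ncdn difference between polysome and ribosome-free RNA with quantile normalization (-0.25) and median ratios (-0.17). For 29 of the 53 the call held throughout. The number of reads behind each value is unknown, and whether a value of 0 reflects few reads was not tested.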

Other observations

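A pair of the most abundant isoforms stood next to each other, chosen after their values were seen. Directly before the 1028-nt isoform lay an 837-nt isoform (RNN_LD1.110_ccs_28467), also at 0 in both hippocampus libraries, with 205 and 297 TPM in the ribosome-free, 663 and 780 TPM in the monosome and 732 and 22.2 TPM in the polysome libraries. In CA1 it was above 0 in somata replicate 1 alone, at 24.2 TPM. The polysome replicates differed for it, whereas the 1028-nt isoform had 2936 and 1985 TPM there. In the same run, the 558-nt row after them had 2778 and 2555 TPM in hippocampus.

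The identifiers carry a token from LD1 to LD4, taken by 64, 138, 201 and 198 of the 601 isoforms. In the same order these are 10.6%, 23.0%, 33.4% and 32.9%, against 6.32%, 18.3%, 32.3% and 43.1% of all isoforms and 8.3%, 18.9%, 28.8% and 44.0% of those seen in both tissues. What each token stands for is not given in the sources used here. In all, 53 of the 601 isoforms were directly adjacent to another of them.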
